A study of Mus musculus with 17 samples.

Results

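The early response of wild-type (WT) bone marrow-derived macrophages (BMDMs) to lipopolysaccharide (LPS) was read from 5 of the 17 ATAC-seq peak lists of the series. ATAC-seq marks open chromatin, because the Tn5 transposase inserts sequencing adapters where DNA is accessible. The 5 lists were 2 from WT cells given 100 ng/ml LPS for 1 h and 3 from untreated WT cells (0 h), chosen by their labels alone. The cells came from the bone marrow of male C57Bl6/J mice aged 6 to 12 weeks and were differentiated for 7 days with 15% L929-conditioned medium. The WT mice were littermates of mice lacking Nur77, the nuclear receptor encoded by *Nr4a1*. The 6 lists of Nur77-deficient cells (KO) at 0 and 1 h, 3 at each time, served only as a check. The KO is a whole-body deletion made with CMV-Cre. The labels give its genotype as cre, while the study's methods describe the KO mice as no longer expressing Cre. The labels name the WT 1 h lists replicate 1-2 and replicate 3, while the design text gives n = 3 per group, and nothing states whether lists came from separate animals. The spread between lists may therefore be technical.

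LPS is sensed by macrophages through Toll-like receptor 4, which signals through MyD88 and TRIF to the NF-kB and MAP kinase pathways. NF-kB dimers enter the nucleus once their inhibitors are degraded, and AP-1 dimers of FOS and JUN proteins are made from immediate-early genes. Both bind enhancers, many of which lie in introns or far from genes and are already held open in macrophages by PU.1, C/EBP and RUNX factors. Other enhancers open only after the stimulus. The comparison asks which sites of WT macrophages open or close within the first hour.

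Promoters of macrophage markers were open. Of 10 macrophage markers, 8 had a promoter peak in all 5 WT lists, among them *Adgre1*, *Csf1r*, *Itgam* and *Spi1*, while *Cx3cr1* had none among the peaks kept for comparison. Of 20 markers of other blood and tissue cells, 16 had none among the peaks kept, and *Pecam1*, *Cdh5* and *Col1a1* had a promoter peak in all 5. Depth was uneven, with 5.11 to 9.75 background reads per kb in untreated WT cells against 0.382 (replicate 1-2) and 1.61 (replicate 3) after LPS. Each list was therefore reduced to its best 24389 peaks by −log10 p-value, the number in the shortest list. A site was then read by whether a list held a peak there and by the rank of that peak, with rank 1 the best.

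Within 1 h of LPS, 1871 of 29981 sites (6.24%) were gained, with a peak in both WT 1 h lists and in no WT 0 h list. Another 2712 sites (9.05%) were lost, with a peak in all 3 WT 0 h lists and in neither WT 1 h list. All 5 lists shared 15263 sites. The other sites had a peak in only some lists of a time point, including 2316 seen in 1 WT 1 h list alone and 1186 seen in 1 WT 0 h list alone. Pairs of WT 0 h lists shared 0.884 to 0.892 of their joint sites (Jaccard index), the WT 1 h pair shared 0.720, and pairs across the time points shared 0.616 to 0.680. The time points thus lay further apart than any pair of replicates, but the WT 1 h lists also lay further from each other than the WT 0 h lists did. With 2 lists against 3, no exact permutation test can give p below 0.1, so single sites were counted and not tested. Leaving out WT 1 h replicate 1-2 gave 3075 gained sites and leaving out WT 1 h replicate 3 gave 2814 gained and 5375 lost sites, since fewer lists then had to hold or lack a peak. Counting every peak with −log10 q of at least 5 in place of equal numbers gave 390 gained and 17698 lost sites, and requiring a peak to cover 50% of a site gave 412 and 10825. Both counts thus depend on how peaks were chosen and matched to sites.

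The sequences at the summits of the best-ranked sites are shown because they had the best ranks of the gained sites at 1 h and of the lost sites at 0 h. Each run covers the summit and 100 bases to either side of it on the GRCm38 plus strand, and capitals mark matches to any of the 10 motifs searched. The 7 gained sites with the best rank at 1 h were, in order:
Dnaic2 (chr11:114725090-114725290): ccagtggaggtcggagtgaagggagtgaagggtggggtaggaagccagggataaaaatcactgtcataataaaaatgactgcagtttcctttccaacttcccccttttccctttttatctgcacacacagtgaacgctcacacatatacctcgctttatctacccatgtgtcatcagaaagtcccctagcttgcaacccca
Vmp1 (chr11:86618646-86618846): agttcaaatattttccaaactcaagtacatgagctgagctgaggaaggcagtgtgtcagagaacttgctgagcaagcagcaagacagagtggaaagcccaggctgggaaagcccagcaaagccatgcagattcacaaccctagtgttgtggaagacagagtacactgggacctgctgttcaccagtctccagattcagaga
Il12b (chr11:44390164-44390364): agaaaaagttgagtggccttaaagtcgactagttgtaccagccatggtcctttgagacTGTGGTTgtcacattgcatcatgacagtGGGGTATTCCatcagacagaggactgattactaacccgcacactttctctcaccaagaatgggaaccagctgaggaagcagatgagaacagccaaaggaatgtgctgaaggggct
Mmp14 (chr14:54442523-54442723): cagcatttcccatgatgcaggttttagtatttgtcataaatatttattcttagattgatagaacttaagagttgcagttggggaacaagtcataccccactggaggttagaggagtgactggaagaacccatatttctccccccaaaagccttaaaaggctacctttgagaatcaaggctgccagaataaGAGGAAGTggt
D10Jhu81e (chr10:78135137-78135337): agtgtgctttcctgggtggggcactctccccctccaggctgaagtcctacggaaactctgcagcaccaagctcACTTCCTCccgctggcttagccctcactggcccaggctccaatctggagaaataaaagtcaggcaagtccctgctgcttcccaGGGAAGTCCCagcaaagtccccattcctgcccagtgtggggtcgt
Cemip2 (chr19:21820260-21820460): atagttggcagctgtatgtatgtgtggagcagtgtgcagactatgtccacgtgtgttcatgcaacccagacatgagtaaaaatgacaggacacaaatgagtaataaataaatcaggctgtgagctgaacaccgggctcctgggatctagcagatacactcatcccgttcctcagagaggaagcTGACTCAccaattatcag
Peli1 (chr11:21034094-21034294): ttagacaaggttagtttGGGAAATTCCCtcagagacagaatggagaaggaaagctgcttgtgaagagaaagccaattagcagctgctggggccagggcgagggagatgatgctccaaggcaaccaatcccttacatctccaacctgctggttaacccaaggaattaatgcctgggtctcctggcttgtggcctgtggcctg
The 4 lost sites with the best rank at 0 h were:
Rtp1 (chr16:23374942-23375142): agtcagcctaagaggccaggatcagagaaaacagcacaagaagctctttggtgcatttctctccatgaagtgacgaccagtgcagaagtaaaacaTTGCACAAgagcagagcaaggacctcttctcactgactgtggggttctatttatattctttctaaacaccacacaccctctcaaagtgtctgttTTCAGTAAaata
Mef2c (chr13:83572098-83572298): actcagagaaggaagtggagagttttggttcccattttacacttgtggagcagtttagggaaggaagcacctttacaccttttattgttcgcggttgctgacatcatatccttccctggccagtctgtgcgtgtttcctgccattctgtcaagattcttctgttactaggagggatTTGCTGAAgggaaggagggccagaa
Gpx3 (chr11:54884844-54885044): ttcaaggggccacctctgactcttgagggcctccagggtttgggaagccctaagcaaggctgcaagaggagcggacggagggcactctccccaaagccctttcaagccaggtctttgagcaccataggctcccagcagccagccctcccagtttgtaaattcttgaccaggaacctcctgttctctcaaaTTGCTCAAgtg
Zdhhc14 (chr17:5591682-5591882): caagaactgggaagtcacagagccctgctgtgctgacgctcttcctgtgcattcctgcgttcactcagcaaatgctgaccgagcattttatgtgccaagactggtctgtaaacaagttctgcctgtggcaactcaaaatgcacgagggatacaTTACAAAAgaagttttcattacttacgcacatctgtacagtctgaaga
NF-kB matches stand in capitals in the *Il12b*, *D10Jhu81e* and *Peli1* sites, an AP-1 match stands near the edge of the *Cemip2* site, and C/EBP matches stand in each of the 4 lost sites. The runs near *Dnaic2* and *Vmp1* hold none of the motifs searched. Genes are named here as the nearest protein-coding transcription start site (TSS), which need not be the gene that a site acts on.

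The best-ranked gained site lay 2222 bp upstream of *Dnaic2*, a gene for a dynein chain of cilia. It ranked 471 and 792 in the WT 1 h lists, against 37248, 45381 and 54288 in the deposited WT 0 h lists. The site in *Vmp1*, an autophagy gene, ranked 435 and 1509 at 1 h and between 26585 and 34637 at 0 h. These sites were weak peaks in untreated cells and were chosen for their rank after 1 h, so the gap between the time points follows from the choice. The site 9.80 kb upstream of *Il12b*, which encodes the shared p40 subunit of IL-12 and IL-23, ranked 1601 and 1060 at 1 h and 55653, 38052 and 42330 at 0 h. The intronic site of *Mmp14*, a membrane-bound matrix protease, ranked 880 and 1930 at 1 h and 34318, 32148 and 29779 at 0 h. The site 57.1 kb upstream of *Peli1*, a ubiquitin ligase of Toll-like receptor signalling, ranked 2390 and 1203 at 1 h and 26418, 31994 and 29631 at 0 h, and its summit sequence above holds NF-kB matches on both strands that overlap. The *Ier5* site, 9.08 kb upstream of an immediate-early gene, ranked 1732 and 3035 at 1 h, and 1 of the WT 0 h lists had no peak there at all.

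Of the 15 best-ranked gained sites, 9 were intronic and 6 intergenic, and none lay at a promoter. They included introns of *Trps1*, a GATA-type repressor, *Tnfrsf8*, which encodes the TNF receptor family member CD30, *Slc39a14*, a zinc importer, and *Pik3ca*, a catalytic subunit of PI3 kinase. All 15 had a peak in all 3 KO 1 h lists, and 9 had none in any KO 0 h list. Of the 15, 4 held an NF-kB match and 1 an AP-1 match, while 6 held no motif searched. The gained sites with the best ranks at 1 h were therefore distal, each already had a weaker peak in at least 1 deposited WT 0 h list, and all 15 were also seen in KO cells, whose peaks entered the merging into sites but not the calls or the ranking. With sites built from the 5 WT lists alone, 1944 were gained.

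Lost sites were weaker at their best. The best ranked 4090, 3885 and 4702 in the WT 0 h lists and lay 54.1 kb upstream of *Rtp1*, which encodes a chaperone of odorant receptors. It had no peak in the WT 1 h list of replicate 1-2 and ranked 26872 in that of replicate 3. The second lay 150 bp upstream of a TSS of *Mef2c*, a myeloid transcription factor, and ranked 5802, 6300 and 5754 at 0 h, with no peak and rank 28628 at 1 h. Both had no peak in the shallower WT 1 h list and fell just past the last rank kept in the other. The intergenic site 20.3 kb upstream of *Cebpa*, which encodes C/EBPα, ranked 7102, 8728 and 8664 at 0 h and had no peak in either deposited WT 1 h list. The other named lost sites lay near or in *Gpx3*, an extracellular glutathione peroxidase, *Zdhhc14*, *Arhgap19*, *Qk*, which encodes an RNA-binding protein, *Chd2*, a chromatin remodeller, *Kcnj16*, *Pex5*, *Zfp36l2*, *4931440F15Rik* and *C1qtnf1*, and at promoters of *Cerk*, which encodes ceramide kinase, and *Arhgap25*. Of these 15 sites, 6 had no peak in either deposited WT 1 h list, and all 15 had a peak in all 3 KO 0 h lists. C/EBP matches stood in 4 of the 15, the 4 whose sequences are shown. PU.1 stood in 3, AP-1 in 1 and NF-kB in 0, while 5 held no motif searched.

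**Figure D1:**
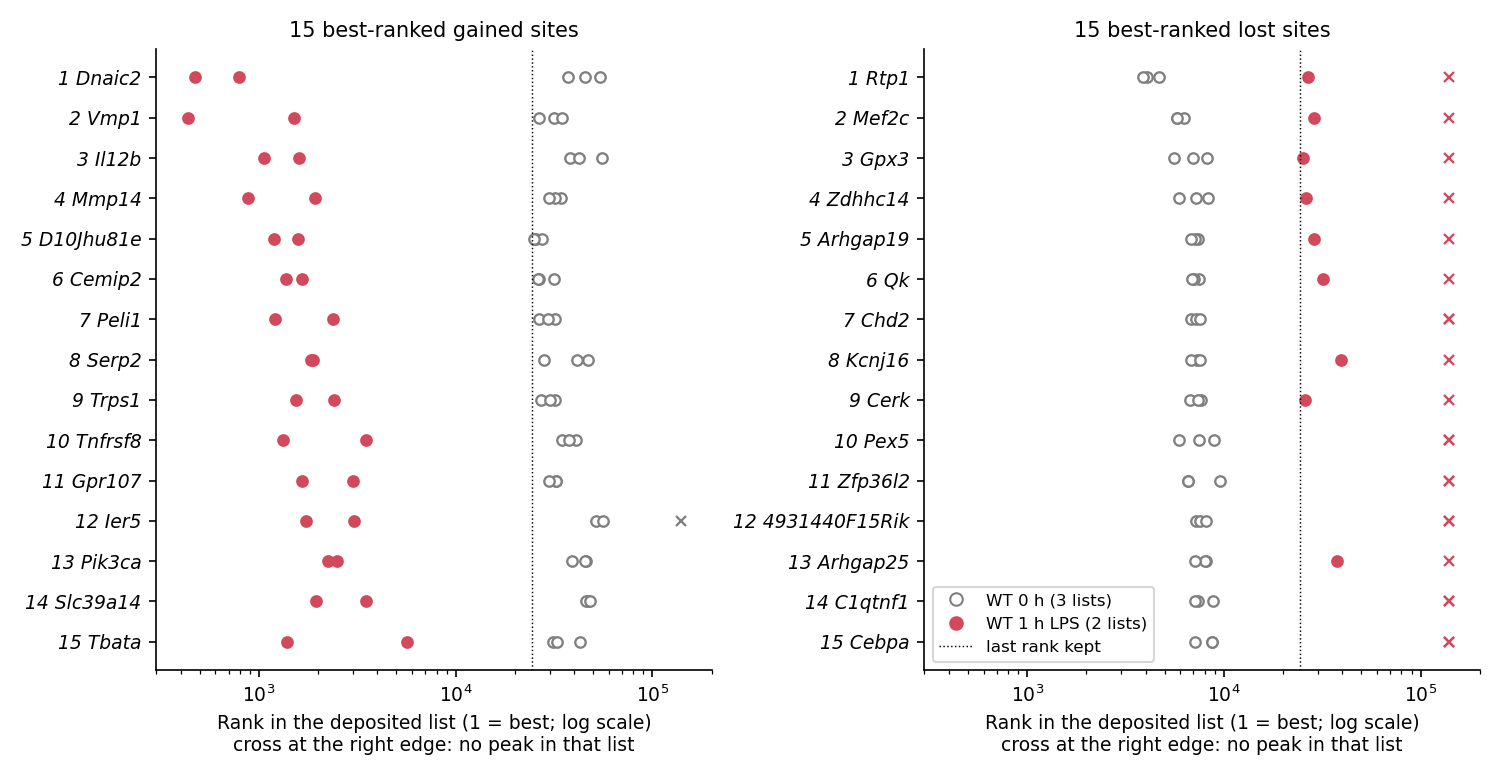
Rank of the 15 best-ranked gained (left) and lost (right) sites in each deposited WT list, on a log axis, with rank 1 the best; open grey circles are the 3 WT 0 h lists, filled red circles the 2 WT 1 h lists, crosses at the right edge mark lists without a peak, and the dotted line is rank 24389. Gained sites sat at ranks from 435 to 5639 at 1 h and past the line at 0 h, while lost sites sat between 3885 and 9557 at 0 h.

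Gained sites were distal. Only 114 of the 1871 (6.09%, 95% Wilson interval 5.10 to 7.27) had their summit within 1 kb of a TSS, against 14.1% of lost sites, 52.3% of the sites in all 5 lists and 33.6% of all sites tested. Introns held 47.9% of gained sites and intergenic DNA 43.3%. The median distance to a TSS was 19677 bp for gained, 13760 bp for lost and 491 bp for shared sites. Promoters were thus mostly open before and after LPS, while the sites that appeared lay at a distance from genes. Intervals over sites cover counting error only, since sites of the same lists are not replicates.

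Sites gained in WT cells opened in KO cells as well. A matched-number peak stood at 5.72%, 8.02% and 10.9% of them in the KO 0 h lists and at 82.4%, 75.4% and 80.0% in the KO 1 h lists. The KO lists of the time points did not overlap, and the mean share was 71.0 percentage points higher at 1 h (8.21% ± 2.6 and 79.2% ± 3.56, SD, n = 3 each, two-sided exact permutation p = 0.1, the smallest possible). The better the rank in WT, the more often the site stood in KO at 1 h, from 67.2% of the 1023 sites with a geometric mean rank over 15000 to 100% of the 48 at 5000 or better. In all, 941 sites (50.3%) met the same all-or-none call in KO, and 0 met the reverse call. Lost sites stood at 90.7%, 75.7% and 63.1% in the KO 0 h lists and at 30.1%, 24.9% and 26.3% in the KO 1 h lists, a difference of -49.4 points (exact permutation p = 0.1). That difference was -31.9 points without WT 1 h replicate 3, and it was -20.5 with the 50% cover and -14.8 with every peak of −log10 q of at least 5 (exact permutation p = 0.6 each). Of the lost sites, 670 (24.7%) met the same call in KO and 2 met the reverse. The share of lost sites in the KO 0 h lists followed their depth of 7.65, 1.53 and 0.720 background reads per kb, and the share of gained sites in the KO 1 h lists followed theirs of 4.14, 0.593 and 1.22. The part of depth in the calls was not tested. In the KO lists under 2 reads per kb alone, chosen after seeing the data, the differences were 68.2 and -43.9 points.

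**Figure D2:**
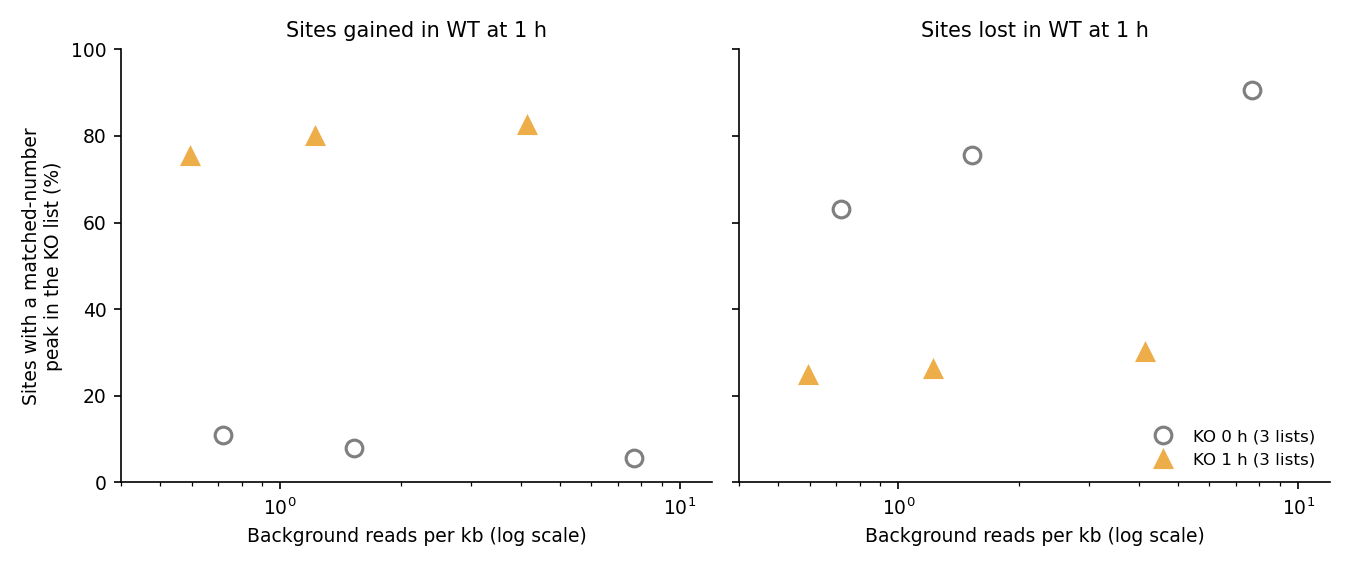
Percent of the sites gained (left) or lost (right) in WT at 1 h that carried a matched-number peak in each KO list, against the depth of that list in background reads per kb on a log axis; open circles are KO at 0 h and filled triangles KO at 1 h. Gained sites stood at 5.72% to 10.9% at 0 h and at 75.4% to 82.4% at 1 h over the whole range of depth, while lost sites stood at 63.1% to 90.7% at 0 h.

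Most gained sites already carried a weaker peak before LPS. In the full deposited WT 0 h lists, 79.3%, 78.6% and 84.1% of gained sites had one, with median ranks of 35916, 35489 and 35416, and 244 gained sites had no peak in any of them. Of the lost sites, 66.4% had a weaker peak in the full WT 1 h list of replicate 3, and 912 had none in either WT 1 h list. Replicate 1-2 has no more peaks than were kept, so for that list the full and the matched-number list are the same.

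The motifs at gained sites differed from those at lost sites. An NF-kB motif, the binding sequence of RELA and NFKB1 dimers, stood within 100 bp of the summit at 16.4% of distal gained sites (289 of 1757, 95% Wilson interval 14.8 to 18.3), 0.902% of distal lost sites (0.591 to 1.37) and 5.52% of all distal sites tested. The AP-1 motif (TGACTCA or TGAGTCA) stood at 27.2% of gained (25.2 to 29.3), 10.5% of lost (9.30 to 11.8) and 22.8% of all distal sites. At the distal sites open in all 5 lists AP-1 stood at 27.3% (26.3 to 28.3), close to its share of gained sites, and NF-kB at 5.49% (4.99 to 6.04), well under it. Either motif stood at 40.0% of gained and 11.2% of lost sites, and both together at 3.64% and 0.129%. Searches covered both strands, and none of the letter strings given here contains another.

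PU.1 motifs were more frequent at lost than at gained sites, and CTCF motifs were so only among sites ranked beyond 15000. PU.1 (GAGGAAGT), the factor that defines the myeloid lineage, stood at 14.0% of distal lost sites (12.6 to 15.4), 5.58% of gained (4.6 to 6.75) and 10.1% of all. RUNX (TGTGGTT) stood at 10.2% of lost, 8.20% of gained and 8.47% of all, intervals that overlap between lost and gained. C/EBP (TTACNNAA or TTGCNNAA) did not separate them, at 21.8% of lost and 20.4% of gained sites. CTCF, the insulator protein, stood at 5.2% of lost, 0.797% of gained and 3.84% of all distal sites. Among lost sites at any position, 129 of the 2269 beyond rank 15000 held CTCF (5.69%). From rank 10000 to 15000 it was 1 of 393 (0.254%, against 0.528% of gained sites), and from 5000 to 10000 it was 0 of 49. The interferon response element, searched as 2 copies of GAAA with 2 bases between them, stood at 5.52% of gained (4.55 to 6.69) and 2.79% of lost sites (2.20 to 3.54). NBRE (AAAGGTCA), the motif of Nur77, stood at 2.05% of gained, 1.42% of lost and 1.37% of all distal sites, with overlapping intervals for gained and lost.

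**Figure D3:**
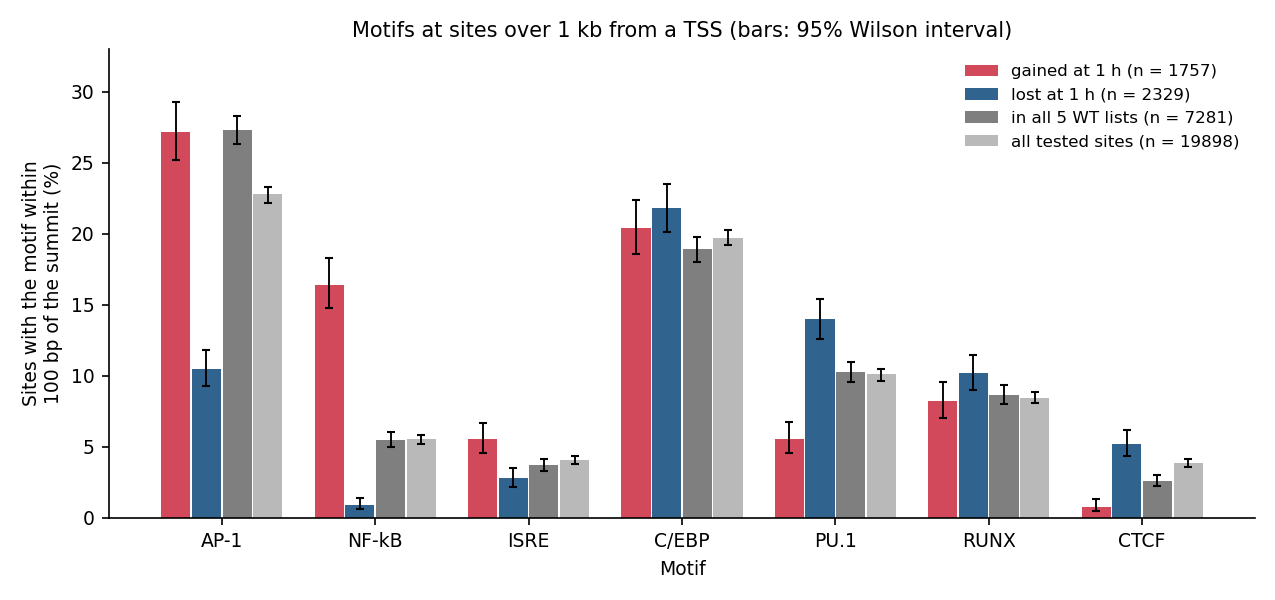
Percent of distal sites with a motif within 100 bp of the summit, for gained, lost, shared and all tested sites; whiskers are 95% Wilson intervals over sites. NF-kB stood at 16.4% of gained and 0.902% of lost sites, PU.1 at 5.58% and 14.0%.

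The NF-kB share was highest among the few best-ranked gained sites. Of the 48 gained sites ranked 5000 or better, 33.3% held one (21.7 to 47.5), against 18.5% of the 232 from there to 10000 (14.1 to 24, overlapping the former), 18.0% of the 568 to 15000 and 14.3% of the 1023 beyond. AP-1 ran the other way over the same groups, at 18.8%, 22.4%, 27.5% and 27.8%, with overlapping intervals at the ends. Among lost sites from rank 5000 to 10000, 20.4% of 49 held PU.1 and 0 held NF-kB (95% Wilson interval 0 to 7.27). At gained sites the NF-kB matches peaked at the summit, with 8.08 matches per 100 sites within 25 bp of it, and 2.4 per 100 at shared sites. PU.1 matches peaked at the summits of lost sites, with 5.50 per 100 within 25 bp against 1.88 at gained sites.

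**Figure D4:**
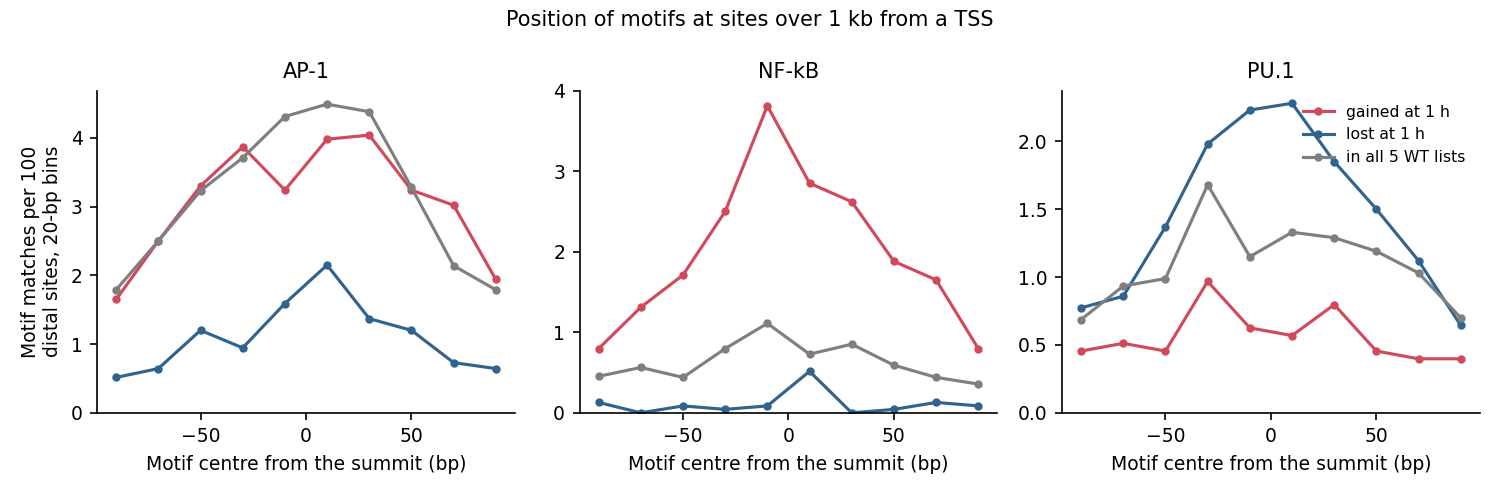
Motif matches per 100 distal sites in 20-bp bins against the distance of the motif centre from the summit in bp, for AP-1, NF-kB and PU.1 at gained, lost and shared sites; the vertical axes differ in range between panels. NF-kB matches at gained sites and PU.1 matches at lost sites were most frequent near the summit.

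The same motifs separated whole lists, a measure that does not depend on calling any site. The NF-kB motif stood at 3.54%, 3.62% and 3.67% of the distal peaks of the WT 0 h lists and at 6.84% and 7.31% of those of the WT 1 h lists. The lists did not overlap, with means of 3.61% ± 0.0669 (SD, n = 3) and 7.07% ± 0.327 (n = 2, exact permutation p = 0.1). AP-1 stood at 22.0%, 21.9% and 21.8% at 0 h and at 23.6% and 27.0% at 1 h, a difference of 3.43 points (exact permutation p = 0.1) that was 1.77 points without WT 1 h replicate 3, 5.09 without replicate 1-2 and 7.31 with every peak of −log10 q of at least 5. PU.1 stood at 11.4% ± 0.203 and 8.53% ± 0.951 and CTCF at 4.30% ± 0.192 and 2.66% ± 0.557 at 0 and 1 h (each exact permutation p = 0.1). The KO lists differed in the same direction without overlap for NF-kB, AP-1, PU.1 and CTCF, by 3.48, 5.80, -1.98 and -0.928 points. Within each time the KO shares rose with depth, CTCF from 3.51% to 4.47% at 0 h and 2.82% to 3.24% at 1 h. The shares were also higher in the deeper WT 1 h list, while those of the WT 0 h lists did not rise with depth. Both WT 1 h lists were shallower than the WT 0 h lists, and the part of depth in these differences was not tested. RUNX and C/EBP differed by -0.953 and -0.661 points in WT, while the KO lists of the time points overlapped for both. With p at the smallest value the design allows, none of these differences can pass 0.05.

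Genes of the LPS response had more sites with a peak after 1 h. The gene lists were chosen with earlier results of these data known, so counts and tests near them, here and below, are not independent evidence. The 9 lists of LPS response genes (169 genes) had 425, 437 and 414 peaks within 100 kb in untreated WT cells, and 700 and 634 after LPS. That is 1.57 times as many at 1 h (425 ± 11.5, SD, n = 3, against 667 ± 46.7, n = 2, exact permutation p = 0.1). Several peaks of a list can fall on 1 site, and peaks were narrower at 1 h, with median widths of 338 and 616 bp against 945 to 1240 bp. With each site counted once, a count added after seeing the data, the lists had 388, 396 and 394 sites with a peak at 0 h and 486 and 535 at 1 h, 1.30 times as many (exact permutation p = 0.1), and 1.35 times as many in KO. Near every gene the number of sites with a peak was lower at 1 h, 19200 and 21258 against 22348, 22208 and 22754 (0.902 times). Counted the same way, the 4 lists of resting macrophage genes had 245, 247 and 264 sites at 0 h and 211 and 231 at 1 h (0.877 times), and the 3 lists of housekeeping genes 111, 112 and 112 at 0 h and 89 and 104 at 1 h (0.864 times). Both were lower in WT without overlap (exact permutation p = 0.1 each), by ratios near that of every gene, and both overlapped in KO. KO lists had 441 ± 20.1 peaks near response genes at 0 h and 605 ± 22.3 at 1 h (exact permutation p = 0.1). Of the sites near response genes, 113 of 609 (18.6%) were gained and 24 (3.94%) lost, against 5.88% and 8.92% of the sites near every gene. At least 1 gained site lay near 68 of the 160 response genes with a site (42.5%), while 1327 of all 12618 genes (10.5%) had one. These gained sites were mostly distal too, with 12 of 113 at a promoter.

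NF-kB subunits and their feedback inhibitors had the highest ratio of 1 h to 0 h of the 9 lists in WT. The list had 48, 50 and 48 sites with a peak at 0 h and 72 and 77 at 1 h (1.53 times, exact permutation p = 0.1). Peaks numbered 52, 54 and 52 at 0 h and 119 and 92 at 1 h (2.00 times), with 18 of 87 sites gained (20.7%) and 0 lost. *Nfkb1*, which encodes the p105 precursor and p50 subunit, had 3, 4 and 3 peaks at 0 h, 16 and 12 at 1 h, and 6 gained sites. The best of them, in its intron with an NF-kB match, ranked 6201 and 4904 at 1 h and had no peak in any deposited WT 0 h list. *Tnfaip3*, the ubiquitin-editing inhibitor A20, had 3 gained sites, and *Tnip1*, which encodes its partner ABIN1, had 2, the better of which ranked 7624 and 4882. *Traf1*, a signalling adaptor, gained its promoter, 96 bp from a TSS, at ranks 8940 and 12844. *Tnfaip3* shows how peaks and sites differ, with 25 and 15 peaks at 1 h over 13 sites. In KO the ratio of sites was 1.54, below 1.75 for chemokines and 1.59 for cytokines.

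Cytokine and chemokine genes also held many gained sites. Of 87 sites near cytokine genes, 22 were gained (25.3%) and 6 lost, and sites with a peak numbered 49.3 ± 1.15 at 0 h and 72.0 ± 2.83 at 1 h (exact permutation p = 0.1). *Il1b*, an early inflammatory cytokine, gained a site at its promoter that ranked 7328 and 7832. *Lif*, an IL-6 family cytokine, had 5 gained sites and 1 lost site, and *Csf2*, which encodes GM-CSF, had 2 and 1. Of 45 sites near chemokine genes, 9 were gained and 1 lost, and sites with a peak numbered 28.0 ± 1.73 and 39.0 ± 1.41 (exact permutation p = 0.1). The promoter of *Ccl5*, a T cell attractant, ranked 5729 and 3205 and that of *Cxcl1*, a neutrophil attractant, 4969 and 11791, and neither had a peak in any deposited WT 0 h list. These promoters differ in position from most gained sites, and *Ccl5* had a matched-number peak in all KO 1 h lists while *Cxcl1* had no matched-number peak in them. *Ccr7*, the receptor that guides cells to lymph nodes, gained a site 10099 bp upstream at ranks 4044 and 5633.

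The other response lists had gained sites too. Surface and costimulatory genes had 16 of 61 sites gained (26.2%), with 4 at *Cd44*, a hyaluronan receptor, and 2 at *Cd83*, a marker of activated antigen-presenting cells. Effector enzymes had 14 of 65 (21.5%), including an intergenic site near *Acod1*, which makes itaconate, at ranks 6371 and 8206, an intronic site nearest *Ptges*, a prostaglandin synthase, at 2550 and 3583, and the promoter of *Nos2*, the inducible nitric oxide synthase, at 16494 and 20252. Signalling brakes had 11 of 80 (13.8%), among them 3 at *Dusp4*, a MAP kinase phosphatase, and 2 at *Cish*, a SOCS family member. Interferon-stimulated genes had few sites, 4 of 32 gained and 0 lost. Of those 4, the promoters of *Ifit3*, *Gbp2* and *Gbp5*, antiviral and guanylate-binding proteins, each held the interferon response element.

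Immediate-early and AP-1 genes had the lowest ratios of 1 h to 0 h among the response lists, 1.08 and 1.12 for sites with a peak. Of 122 sites near immediate-early genes, 15 were gained (12.3%) and 9 lost, and of 66 sites near AP-1 genes 8 were gained and 2 lost. Some genes are on both lists. Here the time points overlapped for immediate-early genes, with 94, 93 and 92 sites with a peak at 0 h and 94 and 107 at 1 h. Their peaks did not overlap, at 102, 103 and 98 against 135 and 128 (1.30 times, exact permutation p = 0.1), and 7.38% of their sites were lost against 8.92% near every gene. *Fos* had 3 gained sites and 1 lost, and *Ier5* had 3 gained. *Nr4a1*, which encodes Nur77, had 0 gained and 1 lost site among 6, the lost one 1.48 kb upstream of its TSS. That site ranked 23618, 21560 and 18583 at 0 h, towards the last rank kept. No KO list at 0 or 1 h had a matched-number peak there, so KO gives no check of its loss. In 8 of the 9 response lists both WT 1 h lists had more sites with a peak than every WT 0 h list, and in KO 8 of 9 were higher as well.

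**Figure D5:**
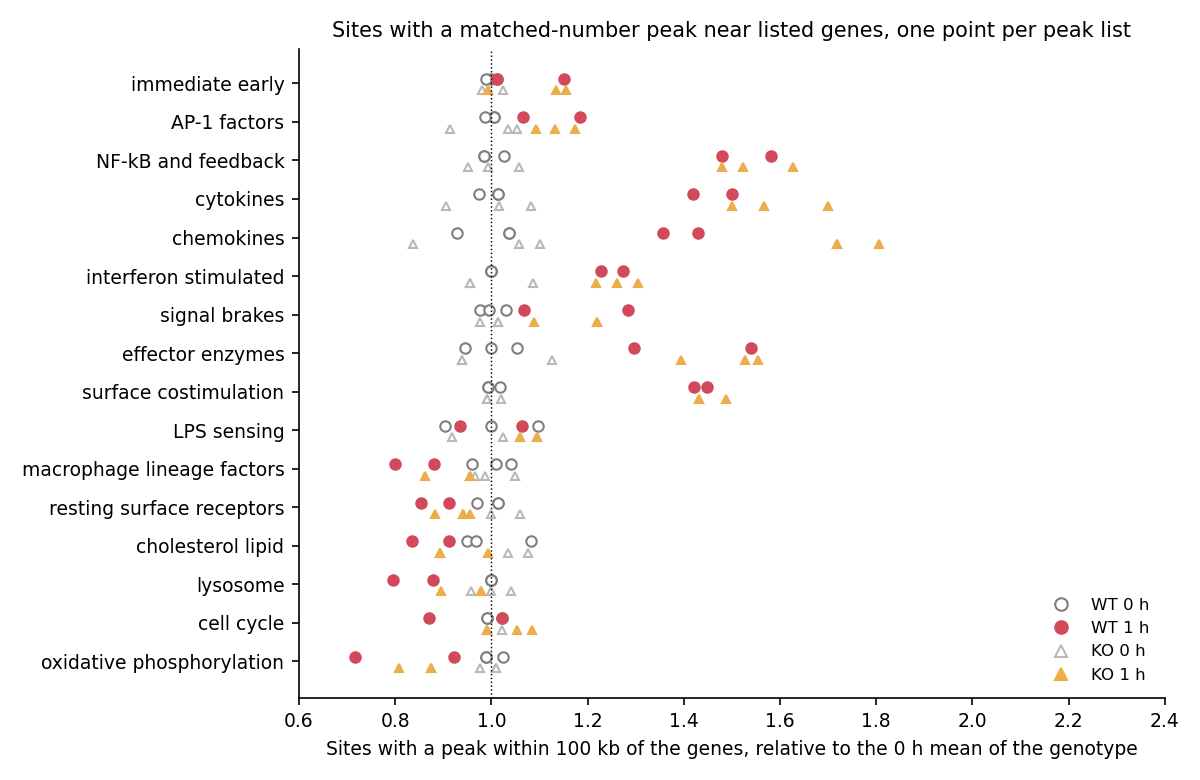
Sites with a matched-number peak within 100 kb of the genes of each gene list, each site counted once, in every peak list and divided by the mean of the 0 h lists of the same genotype; circles are WT, triangles KO, open symbols 0 h and filled symbols 1 h. Both WT 1 h points lie to the right of the 0 h points in 8 of the 9 response lists, shown in the upper rows, the exception being immediate-early genes, and NF-kB and feedback genes reach 1.53 times on average.

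Of the 16 lists, lineage factors and resting receptors had the largest shares of lost sites, though no interval was computed for these shares. Over all tested sites, 2329 of 19898 distal sites and 383 of 10083 promoter sites were lost. The shares of the gene lists were not split by position. Near the macrophage lineage factors, 17 of 126 sites (13.5%) were lost and 5 (3.97%) gained, against 8.92% and 5.88% near every gene. The lost sites included the promoter of *Mef2c*, an intron of *Runx1*, the promoter of *Pparg*, a lipid-sensing nuclear receptor, and the site upstream of *Cebpa*. In KO cells these 17 sites stood at 84.3% ± 8.99 at 0 h and 27.5% ± 3.40 at 1 h (SD, n = 3 each, exact permutation p = 0.1), close to the 76.5% ± 13.8 and 27.1% ± 2.73 of all lost sites. Of the 59 sites near lineage factors that all 5 lists held, 12 ranked at least 2-fold better at 1 h without overlap and 9 at least 2-fold worse, so the shared sites moved in both directions. *Zeb2*, a repressor of the same list, had 3 gained sites and none lost. Near resting surface receptors 12 of 91 sites (13.2%) were lost and 7 (7.69%) gained. Lost sites there included introns of *Mrc1*, the mannose receptor, and *Itgam*, which encodes CD11b. Gained sites lay near *Mrc1* as well and near *Msr1*, *Axl*, *Cx3cr1*, *Tgfbr2*, *Itgax* and *Sirpa*. Sites with a peak near lineage factors numbered 101, 96 and 104 at 0 h and 80 and 88 at 1 h, lower without overlap (exact permutation p = 0.1), and 96.3 ± 4.16 and 89.0 ± 5.2 in KO (exact permutation p = 0.1), while peak numbers overlapped in WT, at 109 ± 1.73 and 116 ± 9.19. The ratio of 0.837 in WT compares with 0.902 for every gene. Housekeeping lists varied too. Near lysosomal genes 6 of 53 sites (11.3%) were lost, near oxidative phosphorylation genes 2 of 32 (6.25%), and sites with a peak numbered 49.0 and 41.0 ± 2.83 for the former and 29.3 ± 0.577 and 24 ± 4.24 for the latter at 0 and 1 h, both lower at 1 h without overlap, while lysosomal genes overlapped in KO (exact permutation p = 0.4). Cell cycle genes overlapped in WT, at 33, 33 and 34 against 29 and 34 (exact permutation p = 0.5).

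Some loci held several gained sites. Of the 1327 genes with a gained site, 1094 had 1 and 172 had 2. *Slc1a2*, a glutamate transporter that neighbours *Cd44*, had the most, 9 of 13 sites, with 3 peaks in every WT 0 h list and 17 and 13 in the WT 1 h lists. *Foxp1*, a monocyte transcription factor, and *Malt1*, a paracaspase of NF-kB signalling, had 5 each, *Btg1*, an antiproliferative gene, 4, and *Alpk2* and *Lpp* 4 each. *Malt1* had 1 peak in each WT 0 h list and 10 and 8 at 1 h. When neighbouring gained sites were joined, 126 clusters of at least 2 sites held 14.9% of them. Clusters of 4 spanned 24.9 kb between *Tnfrsf1b*, the type 2 TNF receptor, and *Tnfrsf8*, 24.8 kb at *Depp1* and *Rassf4*, and 18.6 kb near *Malt1*, and 1 of 3 lay near *Hs1bp3*.

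The largest cluster covered the gene of microRNA 155. Its 5 gained sites lie on chromosome 16 between 84702559 and 84723450, nearest to the protein-coding gene *Mrpl39*, and span the host transcript *Mir155hg* (84703167 to 84715245) and the miR-155 hairpin (84714140 to 84714204, plus strand, GRCm38). miR-155 is induced by Toll-like receptor signals in macrophages and its mature 5p strand, with the seed (bases 2 to 8) in capitals, is given by RefSeq on GRCm38.p6:
mmu-miR-155-5p: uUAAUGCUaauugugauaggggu
The site at the start of *Mir155hg*, 0.105 kb into it, held an AP-1 match and ranked 5375 and 4420 at 1 h, with no matched-number peak at 0 h. The 4 others ranked 17864 and 14992, 12399 and 18372, 7936 and 6844, and 12613 and 13111 from left to right, and had no peak in any deposited WT 0 h list. All 5 had no matched-number peak in the KO 0 h lists, and 4 of 5 had one in all 3 KO 1 h lists. All 5 tested sites of this span were thus gained.

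Lost sites were more scattered. *Rere*, a nuclear receptor corepressor, had 9 of 15 sites lost, with 14 peaks in every WT 0 h list and 6 and 5 at 1 h. KO lists had 15, 13 and 14 at 0 h and 11, 8 and 9 at 1 h. *Rnf144b* had 5 lost sites, and *Selenon*, *Uvrag*, an autophagy gene, and *Dock8*, a regulator of leukocyte migration, 4 each. In all, 2134 of 12618 genes (16.9%) had a lost site. Of these, 279 also had a gained site, which is 13.1% of the genes with a loss and 21% of those with a gain. The 2712 lost sites formed 145 clusters of at least 2 sites, holding 11.2% of them. The largest, with 4 sites over 21.2 kb, lay at *Cd300ld* and *Cd300c2*, receptors of myeloid cells, and others lay at *Cd93*, *Plin2*, a lipid droplet protein, *Ppp1r13b* and the *Ucp2* locus.

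Sites open at both times also differed in rank. Among the 15263 shared sites, 1390 (9.11%) were called rank rises, with both WT 1 h ranks better than all WT 0 h ranks and a geometric mean at least 2-fold better, and 1498 (9.81%) were the reverse, rank falls (2480 without WT 1 h replicate 3). With a 50% cover there were 215 rises and 115 falls, and with at least 4-fold changes 340 and 167, so the balance of rises and falls turned with these choices. Of 7982 promoters 1039 (13.0%) were falls and 354 (4.43%) rises, while of 7281 distal sites 1036 (14.2%) were rises and 459 (6.30%) falls. Distal rises held AP-1 at 36.8% (33.9 to 39.8) and NF-kB at 13.3% (11.4 to 15.5), and distal falls held them at 12.6% (9.90 to 16) and 1.53% (0.741 to 3.11). The AP-1 share of distal rises was above that of gained sites, with intervals that do not overlap. All KO lists at 0 and 1 h held 1218 of the rises, 1436 of the falls and 13203 of the shared sites. The 3 KO lists at 1 h ranked better than the 3 at 0 h at 70.4% of these 1218 rises and worse at 0.575%. For the 13203 shared sites the shares were 15.2% and 19.4%. Of the 1436 falls 48.6% ranked worse in KO at 1 h without overlap.

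The largest promoter rises included feedback and target genes of NF-kB. The promoter of *Nfkbia*, which encodes the inhibitor IκBα, ranked 4003, 3150 and 1499 at 0 h and 232 and 58 at 1 h, 23.0-fold better, with its summit 5 bp upstream of the TSS and an NF-kB match near it. The promoter of *Tnfaip2*, a TNF-induced gene, ranked 2248, 2279 and 2341 at 0 h and 424 and 83 at 1 h. The promoters of *H2-Q7*, a class I MHC gene, *Mtmr14* and *Gramd1a* each held NF-kB matches and ranked 16.8-fold, 14.3-fold and 12.7-fold better at 1 h. In KO these 5 promoters ranked better in every 1 h list than in every 0 h list. *H2-Q7* has near-identical neighbours, so its reads may be shared with them. Over all promoter rises, 15.0% held NF-kB (11.6 to 19.1), against 4.07% of promoters in all 5 lists (3.66 to 4.53). *Phldb1* and *Zfp719* were also among the 8 largest promoter rises, with a promoter of the predicted gene *Gm10801* that ranked 2306, 795 and 2163 at 0 h and 9 and 15 at 1 h. At *Gm10801* the KO lists overlapped, at 1955, 149 and 58 against 706, 10 and 23, with the worst rank in the deepest list at each time.

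The largest promoter falls included an inhibitory receptor and an mRNA decay factor. *Sirpa*, the inhibitory receptor that binds CD47, ranked 178, 421 and 65 at 0 h and 2224 and 2104 at 1 h, 12.8-fold worse, and in KO 239, 349 and 345 against 1436, 717 and 912. *Zfp36l2*, which encodes an mRNA decay factor, ranked 992, 1431 and 178 at 0 h and 9081 and 6358 at 1 h, with KO ranks of 575, 701 and 720 against 4063, 10019 and 7437. At these promoters and at those of *Stub1* and *Ddx54* the time points did not overlap in either genotype. The promoters of *Slc25a28*, *Tacc3*, *Cic* and *Rnf44* were also falls in WT, but there the KO lists overlapped, as at *Slc25a28*, where KO ranks were 51, 190 and 65 at 0 h and 95, 71 and 142 at 1 h. All 4 ranked 95 or better in every WT 0 h list, at the top of the lists, and the part of depth in their order was not tested.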

How the data were processed

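ATAC-seq peak lists of BMDMs were analysed, 1 per sample. The authors trimmed reads with cutadapt 2.6, mapped them to mm10 and ran the snakeATAC pipeline at default settings. The aligner and peak caller are not given in the sources used here. Peak names carry a mapping quality of 20, removal of mitochondrial reads and duplicates, and a q-value of 0.001. Each deposited list gives a score, the fold of pileup over background (a ratio) and the −log10 p-value and q-value of a peak, called per sample. The submitters' processing notes also name DiffBind 3.0.15.

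Identical intervals were collapsed to the highest −log10 p-value, the best 24389 of each list were kept, and peaks of all 17 lists were merged (at least 1 bp of overlap, at least 2 lists) into sites. A site was tested where at least 1 of the 5 WT lists held it. Ranks were used because −log10 p-values grow with depth. Depth in background reads per kb was estimated from the fold and p-value columns, in which every pileup came out whole, and is a relative index that assumes the usual Poisson form of peak p-values. Several peaks of a list could fall on 1 site, so counts near gene lists are also given with each site counted once. Positions came from protein-coding transcripts of GENCODE M21 and sequence from RefSeq, both GRCm38, and gene lists counted sites whose nearest TSS lay within 100 kb. Motifs were searched within 100 bp of summits. The sequence of 1 further named site is not reported here.

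Named sites were the 15 gained and 15 lost with the best geometric mean rank, the 10 genes with most gained and 5 with most lost sites, the 8 largest promoter rank rises and falls, the 5 largest clusters (sites at most 12.5 kb apart), and list members by best rank. Members and gene lists were chosen with earlier results of these data known. Exact permutation tests were two-sided on 1 value per list. Python 3.11.15, numpy 2.4.6, pandas 2.3.3 and scipy 1.17.1 were used, and scripts were tested on simulated data.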

Additional observations from a re-analysis of the deposited data

Results flagged for a closer look

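Beyond the merging of peaks into sites, the 18 h lists were not used in the comparison of 0 and 1 h. Sites gained at 1 h stood in the 18 h lists more often than in untreated KO cells. A matched-number peak stood at 36.1% ± 1.07 of the gained sites in the WT 18 h lists (SD, n = 3) and at 32.8% ± 5.05 in the KO 18 h lists (n = 3), against 8.21% ± 2.6 in the KO 0 h lists (n = 3). The KO 18 h share was 24.6 points above KO 0 h and 46.5 points below KO 1 h (-46.5), each without overlap (exact permutation p = 0.1, the smallest possible). In the full deposited lists KO 18 h stood at 42.7% to 48.7% and KO 0 h at 16.5% to 82.9%, which overlap. The WT 0 h lists hold none of the gained sites by the call itself, so no WT difference was tested.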

How the results depend on the processing

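Of 115 alternatives over 9 results, 46 were counts of sites, of which 28 stayed within 1.5 times the reported count and 18 moved by more. The other 69 were differences with an exact test, of which 0 turned direction, and none could lose a call because no test here can pass 0.05. With the 10000 best peaks of every list there were 1022 gained sites, 1026 lost sites, 614 rank rises and 803 rank falls. Requiring a peak to cover 50% of a site gave 412, 10825, 215 and 115. Absence from the full lists gave 244 gained and 912 lost sites, and every peak with −log10 q of at least 5 (21980 to 66987 peaks per list) gave 390 gained and 17698 lost sites. At least 4-fold rank changes numbered 340 rises and 167 falls. The ratio of gained to lost sites thus changed with these choices, and the cause was not tested.

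Leaving out each list in turn gave 1978 to 3075 gained and 3036 to 5375 lost sites, 1376 to 2001 rises and 1430 to 2480 falls. The difference in KO over leave-one-out fits was 57.1 to 73.0 points for gained and -56.1 to -31.9 for lost sites, that in AP-1 1.77 to 5.09 points (6.63 with the 10000 best peaks), that in NF-kB 3.23 to 3.69 points and that in response gene peaks 209 to 275. Over every alternative, gained sites in KO spanned 57.1 to 80.6 points and lost sites -56.1 to -14.8, where 50% cover gave -20.5 and −log10 q of at least 5 gave -14.8 (exact permutation p = 0.6 each, against 0.1). With a replicate block in KO the differences were 71.0 and -49.4 points (exact sign-flip permutation p = 0.25 each, the smallest possible). Same-numbered KO lists correlated at 0.06, -0.01 and 0.01, which shows no pairing by number. The lists differ in depth, so these values cannot tell whether same-numbered lists share an animal or batch. No paired WT analysis was possible because WT 0 h and 1 h share only replicate 3. KO lists under 2 reads per kb, an alternative added after seeing the data, gave 68.2 and -43.9 points. Counting each site once, also added, gave 118 more sites near response genes at 1 h (exact permutation p = 0.1). Depth limits WT 1 h replicate 1-2 most of the WT lists, with peaks reported from 3 reads.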

Other observations

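After 18 h of LPS most gained sites were absent from the best 24389 peaks of the WT lists, though 83.4%, 74.6% and 68.4% of them had a peak in the full deposited WT 18 h lists. Of the 1871 gained sites, 531 (28.4%) had a matched-number peak in all 3 WT 18 h lists, 1050 (56.1%) in none and 290 (15.5%) in some. Of the 2712 lost sites, 1210 (44.6%) had a matched-number peak in all 3 WT 18 h lists and 786 (29.0%) in none, while the full lists held 88.7% to 97.4% of them. The lost sites stood at 57.9% ± 2.84 in the WT 18 h lists (SD, n = 3) and at 42.5% ± 2.47 in the KO 18 h lists (n = 3), and genotypes were not compared.

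Gained sites with and without a matched-number peak at 18 h differed in their C/EBP share. C/EBP, a family of factors that includes the LPS-induced C/EBPβ, had a motif at 27.7% of the 531 sites present at 18 h (24 to 31.6, 95% Wilson interval) and 16.1% of the 1050 absent ones (14.0 to 18.4). For NF-kB the shares were 18.3% (15.2 to 21.8) and 14.8% (12.7 to 17), for AP-1 24.1% (20.7 to 27.9) and 28.3% (25.6 to 31.1), and for the interferon response element 7.16% (5.26 to 9.67) and 4.57% (3.47 to 6.01), all with overlapping intervals. The sites present at 18 h also ranked better at 1 h, with a median of 13883 against 16428, and the part of rank in the C/EBP difference was not tested. Intervals cover counting error over sites only.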
